A study of Mus musculus with 9 samples.

Results

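The genes described here are 10 mouse genes known for introns that stay in finished, polyadenylated transcripts inside the nucleus, together with genes that set the pace of splicing and feed back on it: Leng8, Wsb1, Clk1, Clk4, Ccnl1, Ccnl2, Ddx5, Srsf5, Srsf11 and Luc7l3. They were picked from known biology with values of these same libraries in view, so their levels and differences are given as a description and no test of theirs is offered as evidence. They are 10 of 23798 genes and 17 of the 33299 RefSeq rows of the table. 5 of them have a single row and the other 5 have several, which makes 15 coding and 2 noncoding rows.

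The series profiled RNA from mouse brain in 3 groups of 3 libraries: placebo-treated WT mice, placebo-treated TG mice, and TG mice that received NM-101. TG stands for the genotype label, in a series whose title names neuron-derived a-synuclein in oligodendrocytes. The transgene, its promoter, the strain, age and sex of the mice, the nature and dose of NM-101 and the length of treatment are not stated in the labels used here. RNA was isolated with a kit meant for FFPE (fixed, wax-embedded) tissue, and the libraries were made with QuantSeq, a chemistry that starts at the 3′ end of polyadenylated RNA. Nothing in the labels says that the 3 libraries of a group came from separate animals, so the spread between them may be technical. The WT columns hold read counts (totals of 10612290, 14041951 and 11774367) and the TG columns hold log2 values read here as log2(FPKM + 1), FPKM being fragments per kilobase of transcript per 1000000 reads. WT and TG were normalised separately and are never tested against each other. The steps between low TG values imply 9150000 to 12920000 reads per library.

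The labels give the cells as oligodendrocytes. All 10 oligodendrocyte markers were detected in every TG library, and so were all 10 neuronal markers. The neuronal sum ran from 3065 to 3501 FPKM and the oligodendrocyte sum from 1561 to 4893 FPKM. The neuronal sum was the higher in replicates 2 and 3 of both TG groups and the lower in replicate 1 of both. The neuronal median was the higher in every TG library. In bulk RNA of this kind, fewer cells of a type and less RNA per cell cannot be told apart.

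Most introns leave a transcript soon after they are made, but a detained intron remains after the rest has been spliced and holds the RNA in the nucleus, where it can be finished later or degraded. Genes of the splicing machinery are rich in such introns. SR proteins bind exons and recruit the spliceosome, CLK kinases phosphorylate SR proteins, and both families tune their own output by making unproductive transcripts when the protein is plentiful. The transcripts of Clk1 and Clk4 are textbook cases, with introns on both sides of exon 4 that are spliced out when kinase activity drops.

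The files hold 1 value per RefSeq transcript and no reads over introns, so intron detention itself was not measured. What can be shown is where the annotation places such introns and how the transcripts of these genes were distributed over the libraries. In GENCODE M21 on GRCm38 (the build also called mm10), each of the 10 genes has at least 1 transcript model classed as retained intron, against 41.6% of 21924 protein-coding genes. The models number 11 for Srsf11, 8 for Ccnl1, 7 each for Clk1 and Clk4, 3 each for Leng8, Ccnl2 and Srsf5, 2 each for Wsb1 and Luc7l3, and 1 for Ddx5. The median was 3 for these genes and 0 for all coding genes. Models classed as targets of nonsense-mediated decay, the pathway that destroys transcripts with an early stop codon, were present for 9 of the 10 (not Leng8), against 20.9% of coding genes.

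The kinase pair is shown first because the same arrangement recurs in both genes. Clk1 lies on the minus strand at chr1:58410189-58424066 and Clk4 on the plus strand at chr11:51261730-51281766. Exon 4, which is 91 bases long in both and therefore shifts the reading frame when it is left out, occupies chr1:58420121-58420211 in Clk1 and chr11:51273078-51273168 in Clk4. The exon sequences from GRCm38 follow, 5′ to 3′ on the strand of the gene, with capitals at the bases that differ between the genes; 85 of 91 bases (93.4%) are identical.
Clk1 exon 4: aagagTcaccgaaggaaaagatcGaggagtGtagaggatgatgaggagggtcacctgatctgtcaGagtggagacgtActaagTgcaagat
Clk4 exon 4: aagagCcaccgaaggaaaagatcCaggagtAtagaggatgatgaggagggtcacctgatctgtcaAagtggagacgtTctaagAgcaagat

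The introns on each side are held in retained-intron models of both genes. Intron 3 is 871 bases in Clk1 (chr1:58420212-58421082) and 1055 bases in Clk4 (chr11:51272023-51273077). Intron 4 is 387 bases in Clk1 (chr1:58419734-58420120) and 391 bases in Clk4 (chr11:51273169-51273559). Each line gives the last 10 exon bases and the first 20 intron bases, with the 9 letters of the donor site in capitals, 3 in the exon and 6 in the intron.
Clk1 intron 3: ttcacacGGGGTATGAgtgccttttaaacg
Clk4 intron 3: gtcgcatTCGGTATGAgtggtttgttttta
Clk1 intron 4: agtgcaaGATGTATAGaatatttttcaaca
Clk4 intron 4: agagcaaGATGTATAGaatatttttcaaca

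The donor of intron 4 is the same 9 letters in Clk1 and Clk4, and the windows share 29 of 30 bases. It matches the consensus CAGGTAAGT, read on the strand of the gene only, at 4 of 9 letters, the fewest among the 29 introns of these genes that a retained-intron model reaches into. Of the 20441 introns of coding genes that such models reach into, 3.88% had a donor with 4 or fewer matches. Across the 29 introns the median was 6 matches, the same as over the 20441, and 20 had 6 or fewer, a class that holds 60.9% of the 20441 donors. A match of 4 letters occurred only at intron 4 of Clk1 and Clk4 among the 29.

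For the other genes, the donor shown is that of the intron reached into by the largest number of their retained-intron models; ties went to the intron held whole in more models and then to the shorter one. Ties occurred in Leng8, Ccnl2, Ddx5 and Srsf11. All of these introns lie between coding exons. No intron of Luc7l3 was covered for 50 bases past its donor by such a model, so none is printed for it. The introns lie at chr7:4144814-4144894 on the plus strand (Leng8), chr11:79242157-79244462 on the minus strand (Wsb1), chr3:65948791-65950479 on the minus strand (Ccnl1), chr4:155817988-155820328 on the plus strand (Ccnl2), chr11:106784019-106784100 on the minus strand (Ddx5), chr12:80947866-80949094 on the plus strand (Srsf5) and chr3:158022951-158026724 on the minus strand (Srsf11). Capitals again mark the donor site.
Leng8 intron 12: ggacctgACAGTAAGGcagcgctgagaggg
Wsb1 intron 5: cagtaaaGCAGTAAGTatcaaagttcttgt
Ccnl1 intron 5: aaactgcCTGGTAAGTtcctcttttacatt
Ccnl2 intron 5: agactgcATGGTGAGTtgattttccttgtt
Ddx5 intron 10: gttctaaATGGTATGTatttcaaataagat
Srsf5 intron 5: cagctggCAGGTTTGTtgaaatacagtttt
Srsf11 intron 3: tatgctgAAGGTTTGTgctttgtttcacta

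The introns shown range from 81 bases in Leng8 and 82 bases in Ddx5 to 3774 bases in Srsf11. No model holds the whole of the Wsb1 or Srsf11 intron. Intron 5 is held whole in models of both cyclin L genes, beside introns 4, 8 and 9 in Ccnl1.

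Across the 6 TG libraries the 10 genes shared 1 pattern. TG placebo replicates 2 and 3 held more of every one of them than TG placebo replicate 1 and all 3 NM-101 libraries did, and the NM-101 libraries mostly lay between, nearer to placebo replicate 1. The placebo group was therefore split within itself by more than the distance between the groups, and the group means say little about any single library. The per-library values follow by role, all in log2(FPKM + 1) summed over the rows of a gene, with placebo replicates 1, 2 and 3 given first and NM-101 replicates 1, 2 and 3 after them.

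**Figure D1:**
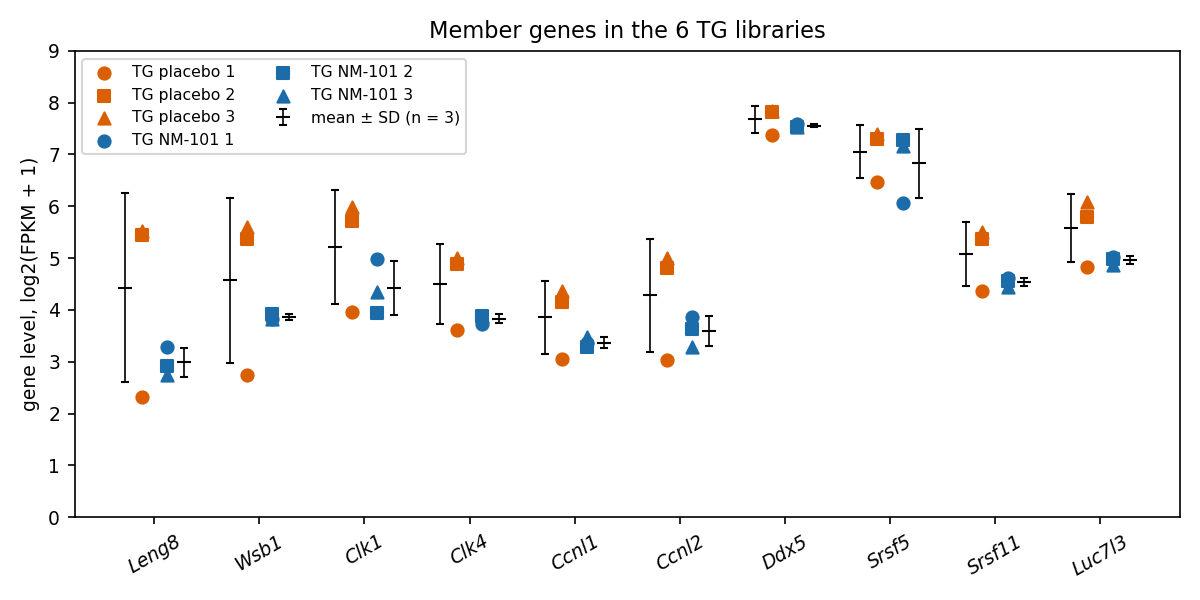
Level of each of the 10 genes, log2(FPKM + 1) on the vertical axis, in the 3 TG placebo (orange) and 3 TG NM-101 (blue) libraries, 1 point per library, with the mean ± SD of each group (n = 3) beside the points. For every gene placebo replicates 2 and 3 are the highest points, and placebo replicate 1 is the lowest for 8 of 10.

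The kinases are given first. Clk1, which phosphorylates SR proteins, stood at 3.96, 5.72 and 5.98 in the placebo libraries and at 4.97, 3.94 and 4.34 with NM-101. Placebo replicates 2 and 3 held 3.54 and 4.25 times the Clk1 FPKM of placebo replicate 1, and the lowest library was NM-101 replicate 2, just under placebo replicate 1. Clk4, the closest relative of Clk1, stood at 3.62, 4.89 and 5.01 with placebo and at 3.74, 3.88 and 3.88 with NM-101. The 3 NM-101 libraries sat within 0.14 of each other for Clk4, while the placebo libraries spread over 1.39. In WT brain the 3 counts were 521, 888 and 475 for Clk1 and 338, 452 and 308 for Clk4, or 50.9 ± 11.6 and 30.1 ± 3.39 CPM (counts per 1000000 counts, SD, n = 3).

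The L-type cyclins, partners of the CDK11 kinase that carry an SR-like domain of their own, had the same split. Ccnl1 (chr3:65946151-65958249, minus strand) stood at 3.06, 4.16 and 4.37 with placebo and at 3.36, 3.28 and 3.48 with NM-101. Ccnl2 (chr4:155812489-155824543, plus strand) stood at 3.03, 4.82 and 5.01 with placebo and at 3.87, 3.64 and 3.28 with NM-101. The distance of placebo replicates 2 and 3 from replicate 1 was larger for Ccnl2, at 3.80 and 4.35 times its FPKM, than for Ccnl1, at 2.31 and 2.69 times. WT counts were even for both, 200, 256 and 246 for Ccnl1 and 258, 318 and 290 for Ccnl2.

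Among the SR proteins and their neighbours at the 5′ splice site, Srsf11 and Luc7l3 had nearly the same profile. Srsf11 (chr3:158010473-158036639, minus strand), an SR protein found with the factors that read the 3′ splice site, stood at 4.36, 5.37 and 5.50 with placebo and at 4.61, 4.56 and 4.45 with NM-101. Luc7l3 (chr11:94287890-94321988, minus strand), a LUC7-like protein of the U1 particle that reads the 5′ splice site, stood at 4.84, 5.79 and 6.09 with placebo and at 5.02, 4.98 and 4.88 with NM-101. The NM-101 libraries spanned 0.16 for Srsf11 and 0.14 for Luc7l3, and none reached placebo replicate 2. Srsf5 (chr12:80945504-80950507, plus strand), an abundant SR protein, was the exception in shape, at 6.47, 7.30 and 7.39 with placebo and 6.07, 7.27 and 7.16 with NM-101. Its lowest library was NM-101 replicate 1, and the other two NM-101 libraries sat just under placebo replicate 2. WT counts were 2422, 2179 and 1820 for Srsf5, 710, 952 and 859 for Srsf11, and 1202, 1401 and 1192 for Luc7l3.

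Ddx5 (chr11:106780355-106789185, minus strand), a DEAD-box RNA helicase that works in splicing and transcription, was the most abundant of the 10 and the most even in both TG groups. It stood at 7.37, 7.82 and 7.84 with placebo and at 7.59, 7.54 and 7.54 with NM-101, a placebo spread of 0.46. Placebo replicates 2 and 3 exceeded replicate 1 by 1.37 and 1.38 times. The WT counts, 8505, 9746 and 8390, were the highest of the group.

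Leng8 and Wsb1, which are not splicing factors of the SR family, varied most between the TG placebo libraries. With NM-101, Wsb1 spanned only 0.11. Leng8 (chr7:4137039-4148177, plus strand) stood at 2.33, 5.45 and 5.52 with placebo and at 3.30, 2.92 and 2.75 with NM-101. In reads, the placebo values correspond to about 209, 2817 and 2748, and the NM-101 values to about 571, 392 and 268, an estimate that rests on the inferred unit. Placebo replicates 2 and 3 held 10.7 and 11.2 times the Leng8 FPKM of replicate 1. Wsb1 (chr11:79239372-79254671, minus strand), the substrate receptor of a ubiquitin ligase, stood at 2.74, 5.37 and 5.61 with placebo and at 3.83, 3.93 and 3.82 with NM-101, or 7.09 and 8.40 times replicate 1 in placebo replicates 2 and 3. In WT brain neither gene showed a gap of that size, with counts of 292, 226 and 250 for Leng8 and 391, 341 and 330 for Wsb1.

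**Figure D2:**
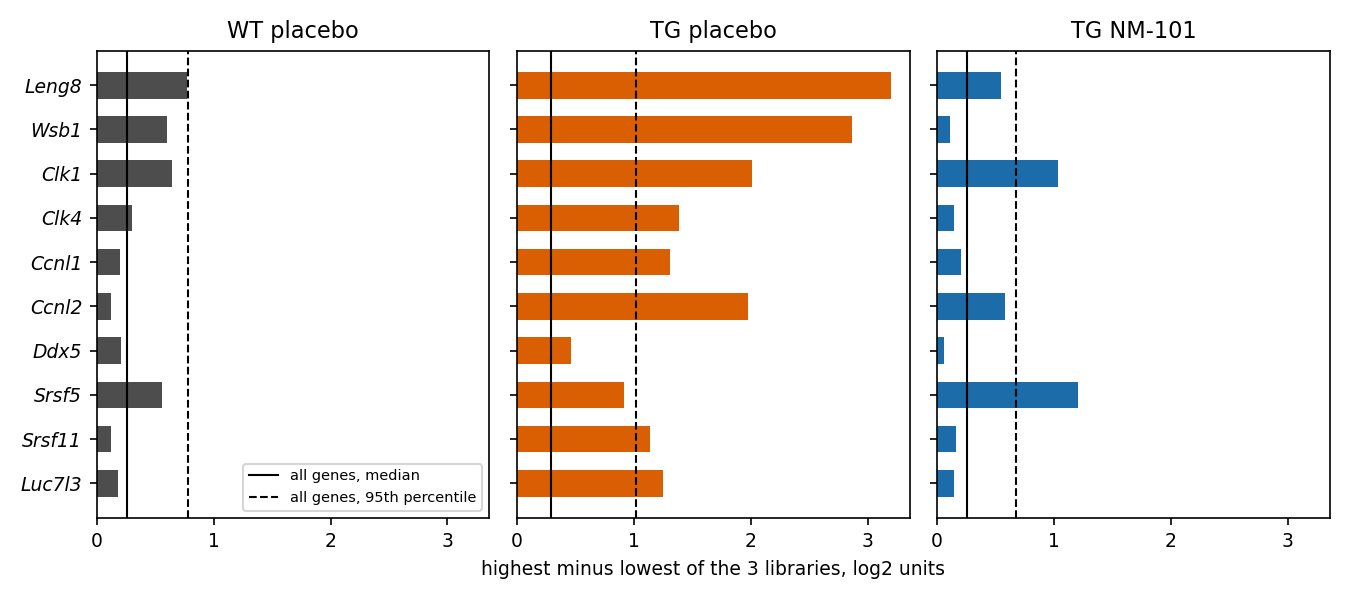
Highest minus lowest of the 3 libraries of a group for each of the 10 genes, in log2 units, with bars starting at 0. Lines mark the median and the 95th percentile of the same range over all genes tested, in WT only over the 11657 with a mean WT count of at least 50. The 95th percentile is passed by 8 of 10 bars in TG placebo, 2 in TG NM-101 and 0 in WT.

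The within-group ranges put the split into numbers. The median range of the 10 genes was 1.35 in TG placebo, against 0.29 for all 12699 genes tested, and 8 of 10 lay above the 95th percentile of all genes, 1.02. Ddx5 and Srsf5 were the 2 below it. In TG NM-101 the median range was 0.18, against 0.26 for all genes, and Clk1 (1.04) and Srsf5 (1.21) passed the 95th percentile of 0.68. In WT, on log2 CPM, the comparison was with the 11657 genes tested that had a mean WT count of at least 50. There the median range was 0.25 against 0.26, and no member passed the 95th percentile of 0.78.

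By order of the libraries, placebo replicates 2 and 3 both lay above the other 4 TG libraries for 10 of 10 genes, a pattern held by 20.5% of all genes tested. Placebo replicate 1 was the lowest of the 6 for 8 of 10 (not Clk1 or Srsf5), against 22.9% of all genes. The full order, with placebo replicate 1 lowest, placebo replicates 2 and 3 highest and the NM-101 libraries between, held for 8 of 10 and for 8.23% of all genes. The members were chosen with this pattern in view, so the counts describe them and test nothing.

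**Figure D3:**
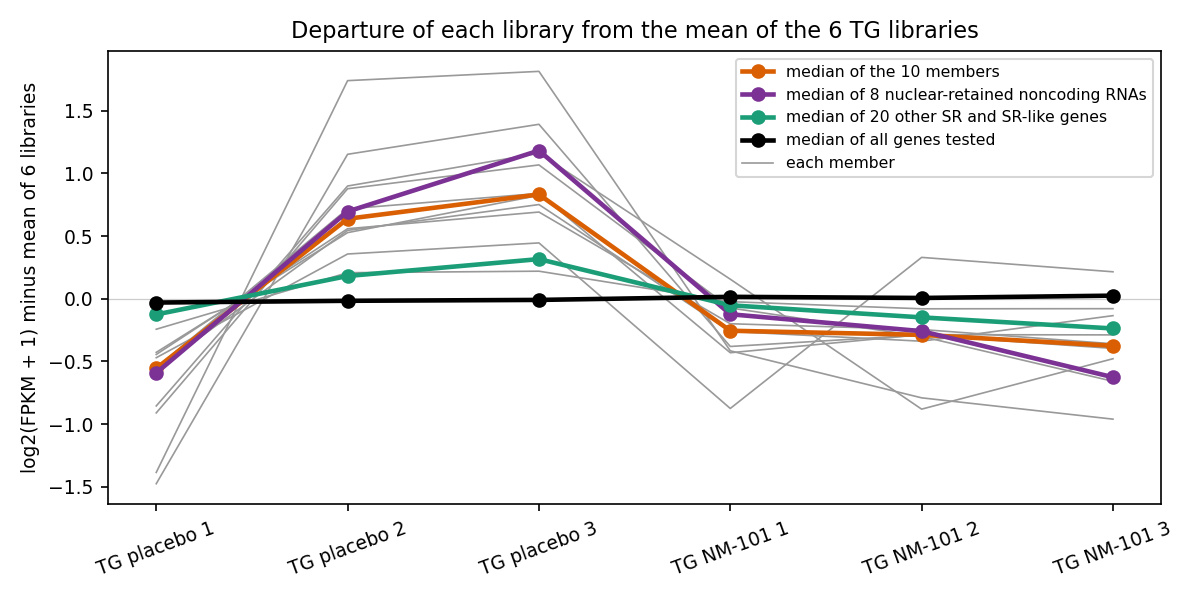
Values of the 10 genes in the 6 TG libraries, each centred on its own mean over the libraries, in log2(FPKM + 1) units. Thin lines are the genes and thick lines the medians of the 10 genes, 8 nuclear noncoding RNAs, 20 other SR and SR-like genes and all genes; the order of replicates has no meaning. The median of the 10 genes was -0.56 in placebo replicate 1, 0.64 and 0.83 in placebo replicates 2 and 3, and between -0.38 and -0.26 in the NM-101 libraries.

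The centred profiles show how far a gene follows the common shape. The median over the 10 genes was -0.56, 0.64 and 0.83 in the placebo libraries and -0.26, -0.29 and -0.38 in the NM-101 libraries, while the median of all genes stayed between -0.03 and 0.02 in each. Luc7l3, Srsf11 and Clk4 lay closest to the common shape, with root mean square differences of 0.069, 0.085 and 0.086 log2 units. Leng8 lay farthest, at 0.762, because its swing was larger, and Wsb1 (0.490), Srsf5 (0.474), Ddx5 (0.375) and Clk1 (0.364) followed. Ddx5 departed through a smaller swing, Wsb1 through a larger one, and Srsf5 through a different order of the NM-101 libraries.

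The comparison of NM-101 with placebo in TG mice asks whether the treated group differed from its placebo control. All 10 genes had a lower mean with NM-101 and none passed the limma test at an adjusted p of 0.05, with 0 at an unadjusted p under 0.05 as well. Over all genes, 17 of 12699 (0.134%) passed, 13 higher and 4 lower with NM-101, and 1884 had an unadjusted p under 0.05. The differences ran from -1.44 ± 1.00 (SE, adjusted p = 0.546) for Leng8 through -0.80 ± 0.64 (adjusted p = 0.594) for Clk1 to -0.12 ± 0.13 (adjusted p = 0.677) for Ddx5. Their median was -0.64, against 0.03 over all genes, of which 44.5% had a negative difference. The groups overlapped for all 10 genes, since placebo replicate 1 sat among or under the NM-101 libraries each time, while 19.6% of all genes had groups that did not overlap.

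The direction of that comparison rested on which placebo libraries entered it. Without TG placebo replicate 1, 8 of the 10 genes were called lower with NM-101 and the median difference was -1.05; Leng8 differed by -2.50 ± 0.15 (SE, limma adjusted p = 2.72e-05) and Wsb1 by -1.63 ± 0.11 (adjusted p = 3.09e-05). Ddx5 (adjusted p = 0.052) and Srsf5 (adjusted p = 0.488) were not called. In that fit 8.17% of all genes were called lower, 1040 of 12729. The 10 genes were picked with placebo replicates 2 and 3 highest in view, the placebo libraries this fit keeps. Its calls among them therefore test nothing. Without TG placebo replicates 2 and 3, an alternative chosen after seeing the data, all 10 differences were positive, the median was 0.34, and Wsb1 alone was called, higher with NM-101 by 1.12 ± 0.16 (adjusted p = 0.0147), with the lone placebo library assumed to vary like the treated ones. In that fit 105 of 12647 genes were called, 55 of them higher (0.435% of all genes). These genes therefore had no direction under NM-101 that held for both kinds of placebo library.

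Marker sums of several cell types also differed between the placebo libraries. Placebo replicate 1 had a summed oligodendrocyte marker level of 4893 FPKM against 1627 and 1561 in replicates 2 and 3, and 3734, 2055 and 2745 with NM-101. The 8 choroid plexus markers summed to 4935 FPKM in placebo replicate 1, 28.2 and 33.7 in replicates 2 and 3, and 78.4, 1120 and 103 in the NM-101 libraries, with 1 of the 8 at 0 in a TG library. Endothelial and mural markers ran the other way, at 79.0, 110 and 115 FPKM with placebo and 85.7, 78.3 and 74.9 with NM-101. Astrocyte markers summed to 1303, 1229 and 1154 FPKM with placebo and to 1719, 1636 and 1746 with NM-101, and microglia markers to 288, 294 and 270 with placebo and 360, 357 and 355 with NM-101, so neither overlapped between the groups. Neuronal sums overlapped. The part of these cells in the levels of the 10 genes was not tested. WT replicate 1 also had a high choroid plexus sum, 4624 CPM against 134 and 204 in WT replicates 2 and 3.

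Several genes have rows for more than 1 transcript, and 3′ reads cannot always be assigned between transcripts that share an end, so the split between rows is uncertain. Clk1 is the clearest case, because its rows include noncoding forms. Its coding row, NM_001042634, carried 97, 333 and 232 WT counts. The noncoding row NR_027853, whose counterpart in GENCODE lacks exon 4 and is classed as a target of nonsense-mediated decay, carried 304, 393 and 86. The other noncoding row, NR_027854, carried 120, 162 and 157; its exons are not described here because the tables pair it with the same GENCODE transcript as the coding row. Noncoding counts were therefore 4.37, 1.67 and 1.05 times the coding counts in WT brain.

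**Figure D4:**
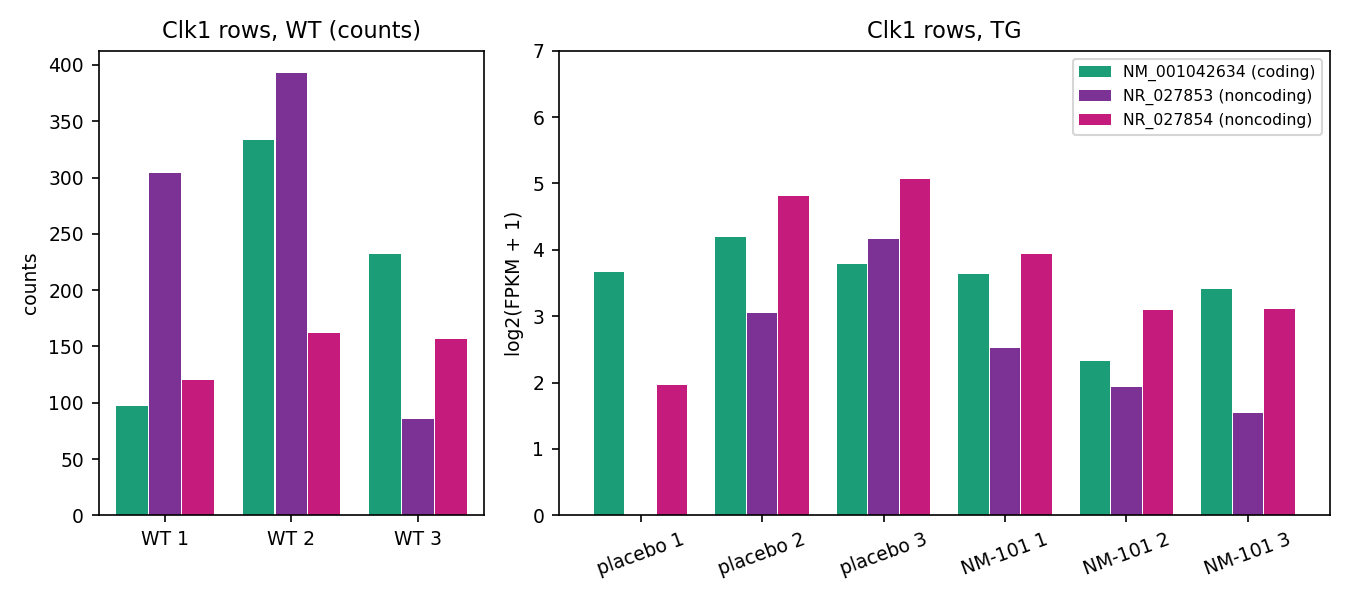
Values of the 3 Clk1 rows in each library, as counts for WT and log2(FPKM + 1) for TG, on separate axes. NR_027853 is at 0 in TG placebo replicate 1 and at 4.16 in replicate 3, while the coding row stays between 3.67 and 4.20 in the 3 placebo libraries.

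In the TG values as listed per row, the Clk1 split lay in the noncoding rows. Reads from the 3′ end may not separate these rows, so a change in noncoding Clk1 RNA was not shown. The coding row stood at 3.67, 4.20 and 3.78 with placebo and at 3.64, 2.33 and 3.42 with NM-101, so the placebo libraries were close together. NR_027854 stood at 1.96, 4.81 and 5.07 with placebo and at 3.93, 3.09 and 3.12 with NM-101. NR_027853 was listed at 0 in placebo replicate 1 and stood at 3.04 and 4.16 in replicates 2 and 3, and at 2.52, 1.93 and 1.55 with NM-101. The ratio of noncoding to coding FPKM was 0.246, 1.98 and 3.87 with placebo and 1.66, 2.57 and 0.991 with NM-101. On the log2 scale that is 0.30 ± 2.07 for placebo and 0.69 ± 0.69 for NM-101 (SD, n = 3 each), a difference well inside the spread. WT ratios are of counts, without division by length, and are not on the same scale.

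Exon 4 also separates the 2 rows of Clk4, but here both are coding. NM_007714 holds the exon, and the model matching NM_001304744 lacks exons 2 and 4. The full row stood at 3.04, 4.30 and 4.66 with placebo and 3.00, 3.26 and 3.60 with NM-101, and the shorter row at 2.35, 3.45 and 2.99 with placebo and 2.67, 2.63 and 1.86 with NM-101. The ratio of shorter to full form was 0.567, 0.533 and 0.286 with placebo and 0.771, 0.602 and 0.235 with NM-101, and 0.420, 0.512 and 0.495 in WT counts. Among the placebo libraries, both Clk4 rows were lowest in replicate 1.

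The ratio of the Wsb1 rows varied more between libraries than that of the Clk4 rows in WT and with placebo, and less with NM-101. NM_019653 stood at 2.50, 4.70 and 4.80 with placebo and at 2.98, 3.18 and 3.30 with NM-101. NM_001042565 stood at 1.01, 4.03 and 4.45 with placebo and at 2.89, 2.84 and 2.39 with NM-101, so it was the further down in placebo replicate 1. Its share relative to NM_019653 was 0.217, 0.616 and 0.774 with placebo, 0.933, 0.766 and 0.481 with NM-101, and 0.377, 0.593 and 0.813 in WT counts.

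The 3 coding rows of Srsf5 did not all share the order of their sum. NM_001079694 stood at 5.10, 6.29 and 6.48 with placebo and 5.08, 6.25 and 5.79 with NM-101, and NM_009159 at 3.81, 4.84 and 4.72 with placebo and 3.61, 4.63 and 4.89 with NM-101. NM_001079695 was flatter with placebo, at 5.41, 5.72 and 5.75, and stood at 4.53, 5.80 and 5.90 with NM-101. All 3 rows were lowest in NM-101 replicate 1, and NM_001079695 and NM_009159 were highest in NM-101 replicate 3. NM_001079694 and NM_009159 are paired with the same GENCODE transcript, so they are not independent. Srsf11 behaved otherwise, because its major row followed the split and its minor row did not. NM_001093752 stood at 3.61, 5.11 and 5.45 with placebo and 4.47, 4.21 and 4.16 with NM-101, while NM_001093753 stood at 3.23, 2.97 and 1.30 with placebo and 1.70, 2.63 and 2.30 with NM-101. The minor row held 48, 78 and 0 WT counts beside 662, 874 and 859 for the major row.

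WT levels can be set beside TG only on a rebuilt scale, WT CPM per kilobase, for the 15 of 17 rows with a usable transcript length (NM_001079694 and NM_009159 of Srsf5 share one). On it the median of the 15 rows, less the WT mean, was -0.40, 0.78 and 0.70 in the placebo libraries and -0.10, -0.02 and 0.08 in the NM-101 libraries, with medians of 0.03 to 0.07 over 15586 rows. Rows above their WT mean numbered 3, 14 and 15 of 15 in the placebo libraries and 6, 7 and 9 in the NM-101 libraries, against 52.8% to 58.1% of all rows. For 12 of the 15 rows the WT mean fell inside the range of the 3 TG placebo libraries. Leng8 shows the spread best, with a rebuilt WT mean of 2.37 ± 0.31 (SD, n = 3) and placebo libraries at -0.04, 3.08 and 3.16 from it. A noncoding and a minor form stood apart. NR_027853 of Clk1 lay under its WT mean of 3.56 ± 1.00 in 5 of 6 TG libraries, all 3 NM-101 libraries included (-1.04, -1.63 and -2.01). NM_001093753 of Srsf11 lay above its WT mean of 1.02 ± 0.89 in all 6, by 0.27 to 2.21, with 1 WT library at 0. For most rows TG placebo lay on both sides of the WT mean. The rebuilt scale allows no test, so whether WT and NM-101 levels differ was not tested.

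**Figure D5:**
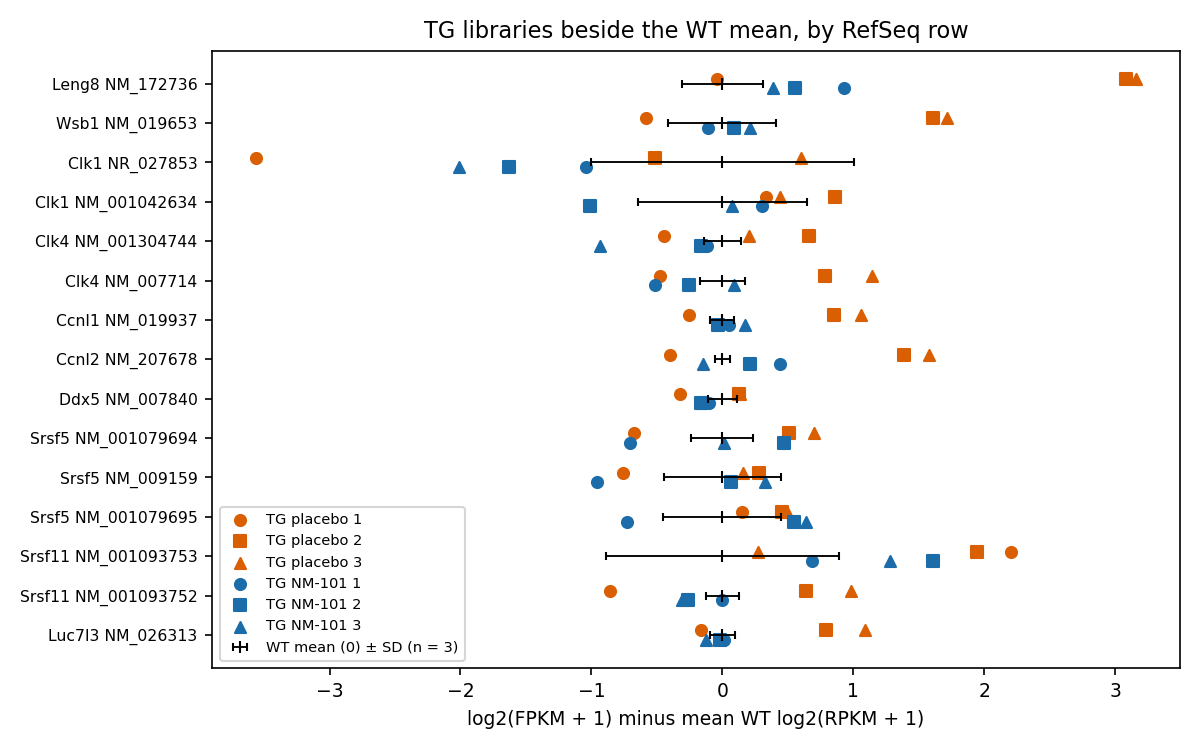
Rows of the 10 genes in each TG library less the WT mean on the rebuilt log2 scale, with 0 at the WT mean and bars for its SD (n = 3); each point is a row in 1 library. Placebo replicate 1 lies mostly under 0 (3 of 15 rows above), placebo replicates 2 and 3 lie above it (14 and 15 of 15), and the NM-101 libraries straddle it.

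The wider splicing and RNA-processing network was described with 10 lists, of which 123 of 128 genes were tested. None was called in the limma comparison of NM-101 with placebo, against 17 of all 12699 genes tested. An unadjusted p under 0.05 was found for 16 of the 123, against 1884 of the 12699. The median difference was -0.14, against 0.03 over all genes. Placebo replicates 2 and 3 lay above the other 4 TG libraries for 65 of 123, against 20.5% of all genes tested. The lists were chosen with earlier results of these data known, so these counts and those below describe them and test nothing. The values given below are differences, NM-101 minus placebo, in log2(FPKM + 1), and for each list the genes named are the pair with the largest difference in size.

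Factors of the U1 particle come first. Of 9 LUC7 and U1 genes, 8 had a negative difference and 8 had placebo replicates 2 and 3 highest, with a median of -0.37. Snrnp70, the U1 protein that binds the RNA stem, stood at 5.74, 6.91 and 7.03 with placebo and 5.87, 5.74 and 5.51 with NM-101 (difference -0.85), and Prpf39 differed by -0.75. Of 20 other SR and SR-like proteins, 16 had a negative difference and 11 had placebo replicates 2 and 3 highest, with a median of -0.21. Rsrp1 differed by -0.89 and Pnisr by -0.84, and Pnisr stood at 3.62, 5.37 and 5.48 with placebo against 4.04, 4.15 and 3.78 with NM-101.

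Kinases and phosphatases of splicing factors were mixed, with 4 of 9 genes highest in placebo replicates 2 and 3 and a median of -0.12. Clk2 (-0.31), another CLK kinase, and Prpf4b (-0.30) had the largest differences. Partners of cyclin L and other kinases and cyclins of transcription were listed together, with 3 of 8 highest in those libraries, a median of -0.08, and Ccnt2 (-0.40) and Cdk9 (-0.15), a cyclin and the kinase it activates, foremost. Of 17 DEAD-box helicases and hnRNP proteins, 10 were highest in those libraries, with a median of -0.16, led by Ddx17 (-0.58), the paralog of Ddx5, and Ddx39b (-0.34).

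Other genes with reported detained or regulated introns did not all share the pattern. Of 19, 10 had placebo replicates 2 and 3 highest, the median was -0.09, and the largest differences were those of Nktr (-0.85) and Rbm5 (-0.80). RNA exosome and export genes gave 8 of 14 and -0.16 (Zfc3h1 -0.61, Nxf1 -0.46), and nonsense-mediated decay genes 5 of 14 and -0.11 (Smg1 -0.43, Smg9 -0.35). The WSB and ubiquitin-ligase relatives of Wsb1, Wsb2 among them, were on the other side of 0. All 5 had a positive difference, none was highest in placebo replicates 2 and 3, and the median was 0.31 (Eloc 0.42, Elob 0.40).

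Among long noncoding RNAs held in the nucleus, 8 of 12 were tested, of which 6 had placebo replicates 2 and 3 highest; 5 had a negative and 3 a positive difference. For these 8, the centred median was -0.59, 0.70 and 1.18 in the placebo libraries and -0.12, -0.26 and -0.63 in the NM-101 libraries, and the median difference was -0.86. Meg3 stood at 4.77, 8.64 and 8.69 with placebo and 5.92, 5.87 and 5.23 with NM-101 (difference -1.69), and Miat differed by -1.38. Rian (0.01), Peg13 (0.05) and Pvt1 (0.20), named after their values were seen, had the 3 positive differences. The median of these RNAs was highest in placebo replicate 3, and its values in NM-101 replicate 3 (-0.63) and placebo replicate 1 (-0.59) were close. Malat1, Meg3, Miat, Mirg, Rian and Peg13 were each lowest in placebo replicate 1, as were most of the 10 genes, while Neat1 and Pvt1 were not.

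Likeness was ranked over 7544 other genes with a mean log2(FPKM + 1) of at least 3. Genes with Gm, Rik or LOC names and rows without a symbol were left out. The 8 whose profile lay nearest to the member median were Agrn, Mir100hg, Akap8, Eml5, Abcc5, Sfswap, Phf20l1 and Ice1. Their root mean square differences over the 6 TG libraries ran from 0.071 for Agrn to 0.105 for Ice1, against a median of 0.577 for all candidates. Mir100hg is a long noncoding host transcript, Akap8 a nuclear anchoring protein and Sfswap a splicing regulator, while Agrn encodes the matrix proteoglycan agrin and Abcc5 a membrane transporter. Agrn stood at 3.31, 4.53 and 4.51 with placebo and at 3.56, 3.54 and 3.39 with NM-101, which is the order of the member median in outline. Sfswap stood at 3.33, 4.35 and 4.50 with placebo and at 3.50, 3.62 and 3.28 with NM-101.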

How the data were processed

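The table holds 9 brain libraries. Per the submitters' processing notes, reads were aligned with Bowtie2 to mm10; neither the counting program nor the annotation is given in the sources used here. Per the file, the authors deposited WT values as whole-number counts per RefSeq transcript and TG values as log2 numbers with 3 decimals. The reading as log2(FPKM + 1) comes from the values: over 15667 rows their linear form had a slope of 0.93 on log2 WT CPM and -0.85 on log2 transcript length. Of the 33299 rows, 32394 were named from a RefSeq table. Linear values were summed per gene, and genes with a mean log2 of at least 1 over the 6 TG libraries were tested with limma 3.58.1 in R 4.3.3 (trend and robust options, Benjamini-Hochberg adjustment over 12699 genes), a procedure tested on simulated data. edgeR 4.0.16 supplied TMM factors for 1 alternative. Descriptive values were computed in Python 3.11.15. Intron coordinates and sequences come from GENCODE M21 and GRCm38. All 10 genes and the 2 genes with the largest difference from each list are named. The genes and lists were chosen with earlier results of these data known. The p-values measure only the spread between these libraries. The number of libraries limits precision.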

Additional observations from a re-analysis of the deposited data

How the results depend on the processing

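The count of genes called between NM-101 and placebo moved with most choices. It was 17 as reported and with a pseudocount of 0.1, 45 with a mean log2 of at least 3, 7 with RefSeq rows tested separately, 4 with no filter, with median-ratio scaling, with TMM scaling and without the trend and robust options, 3 with the replicate block, and 0 in limma over genes above 0 in all 6 libraries, where 1894 had an unadjusted p under 0.05. Leaving out 1 library gave 2 to 2262 calls, with 2262 without TG placebo replicate 1 and 5 or fewer without any other. Leaving out TG placebo replicates 2 and 3, chosen after seeing the data, gave 105. Calls among the 123 list genes went from 0 to as many as 49 (range 0 to 49 over single libraries left out), the 49 without TG placebo replicate 1. In that fit 2262 of all 12729 genes were called. The lists were chosen with earlier results of these data known, so the 49 calls test nothing. The median difference of the 10 genes was -0.64, with -0.41 without TG placebo replicate 2, -0.33 without replicate 3 and -1.05 without replicate 1, and turned to 0.34 without TG placebo replicates 2 and 3. Over the 14 alternatives fitted per gene with at least 5 libraries, 9 genes kept a negative difference throughout, and Srsf5 was positive once, at 0.16 without NM-101 replicate 1. The filter choices, the replicate block and the trend and robust options cannot change a gene's difference, so their signs add nothing. The log2 ratio of noncoding to coding Clk1 in WT was 0.98 over all rows and -0.43 with the highest row of each kind. The cause of these shifts was not tested. Replicate numbers do not pair the libraries: deviations of same-numbered libraries correlated at 0.04, -0.03 and -0.02, so the replicate block is only a shared number. Split reads between rows of a gene, and the inferred TG unit, limit every level given.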
